A study of Mus musculus with 3 samples.

Results

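The cyclophilin mRNAs examined here were those of 8 mouse genes, Ppia to Ppih, taken from a bisulfite sequencing experiment on polyadenylated RNA. Members were chosen by gene symbol, and every listed cytosine of every RefSeq transcript carrying one of these symbols was kept, including cytosines listed in only 1 or 2 libraries. This gave 2236 cytosines in 10 transcripts, out of 4450412 cytosines in 15021 transcripts of 13224 named genes. The cells were embryonic stem cells of the J1 background with the genotype Tet1-/-,Tet2-/-,Tet3-/-, which lack the enzymes that oxidise 5-methylcytosine. They were grown with LIF on feeder fibroblasts that were later removed by repeated plating, and were measured in 3 samples of 1 group. No sample of another genotype was analysed here, so all comparisons are between transcripts and cytosines of the same libraries. Nothing in the labels says that the 3 samples came from separate cultures, and their spread may be technical.

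Cyclophilins are peptidyl-prolyl isomerases, enzymes that turn the peptide bond before a proline between its cis and trans forms and so help proteins fold and change shape. They share 1 catalytic domain and differ in where they work. Ppia (cyclophilin A) is the abundant cytosolic form and the main target of cyclosporin A, and Ppid (cyclophilin 40) works with the Hsp90 chaperone. Ppib and Ppic belong to the secretory pathway, Ppif (cyclophilin D) lies in the mitochondrial matrix and regulates the permeability transition pore, and Ppie, Ppig and Ppih are nuclear and associated with splicing. Ppia is also known for its many processed copies, intronless sequences that reverse transcription of its mRNA left in the genome.

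Bisulfite converts unmodified cytosine to uracil, which is read as thymine, whereas 5-methylcytosine and 5-hydroxymethylcytosine are read as cytosine. The unconverted share of a cytosine is the percentage of its reads that still show cytosine. It does not separate a modified base from one that the reagent missed or from a read of a different sequence. Cytosines read at least 10 times in every library were testable. In each library a one-sided exact binomial test compared the unconverted reads with the library-wide share. Fisher's method joined the 3 p-values, which were adjusted over all 1639820 testable cytosines. A candidate had an adjusted p below 0.05, a mean share of at least 10%, and more than the library-wide share in all 3 libraries. Coverage and unconverted share are also the values by which the family was chosen for description, so the family's levels are given without a test. For the same reason the calls in the family are read as a description.

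The cyclophilins held 1 candidate among 1311 testable cytosines (0.0763%), against 0.0473% of all testable cytosines. It lay at position 30 of Ppia (NM_008907.1). The bases around it are shown because they place the site just upstream of the first ATG. They were read from the RefSeq sequence of GRCm38.p6 at chr11:6415885-6415913 (plus strand), and the capital marks the candidate at chr11:6415899.

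Ppia positions 16 to 44: gtcgcttttcgccgCttgctgcagccatg

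The window was placed by the cytosines themselves. All 16 listed Ppia cytosines within the first bases of the RefSeq gene start fell on a cytosine there when the table's first position was set 3 nt downstream of that start, and this was the only one of 41 offsets tried that did so. All 16 cytosines of that stretch were listed. The last 3 bases shown, positions 42 to 44, are the first ATG, which begins 12 nt after the candidate. The same alignment placed the 5' ends of Ppib, where all 23 listed cytosines fell on 1 of 25 cytosines, and of Ppif, where all 17 fell on 1 of 20. Ppig and Ppih had no listed cytosine in that stretch. No such placement is given here for Ppic, Ppid and Ppie.

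Position 30 of Ppia was unconverted in 21 of 127 reads in replicate 1, in 16 of 101 in replicate 2 and in 10 of 96 in replicate 3. These are shares of 16.5%, 15.8% and 10.4%, a mean of 14.3% ± 3.35 (SD, n = 3). The exact 95% interval reached from 10.5% to 24.2% in replicate 1, from 9.33% to 24.4% in replicate 2 and from 5.11% to 18.3% in replicate 3, so the 3 libraries overlapped, with replicate 3 the lowest. The adjusted p was 2.73e-26 (combined exact binomial test), which sets reads against the background of their library and holds no spread between samples. The family was chosen with earlier results of these data known, so this p-value describes the site and is not independent support for it. PCR copies could not be told from separate molecules, so all intervals cover counting error only.

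The neighbours of this cytosine were converted. Within 20 nt lay 14 other listed cytosines, from position 11 to 50, at 90 to 127 reads in replicate 1, 70 to 101 in replicate 2 and 73 to 96 in replicate 3. None had more than 5, 3 and 3 unconverted reads in these libraries, and over all of them and all libraries 1.31% of reads were unconverted. At position 28, the nearest listed cytosine, 0 of 127, 2 of 101 and 1 of 96 reads were unconverted, at the same coverage as the candidate. The excess was thus seen at a single cytosine whose neighbours share its reads.

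**Figure D1:**
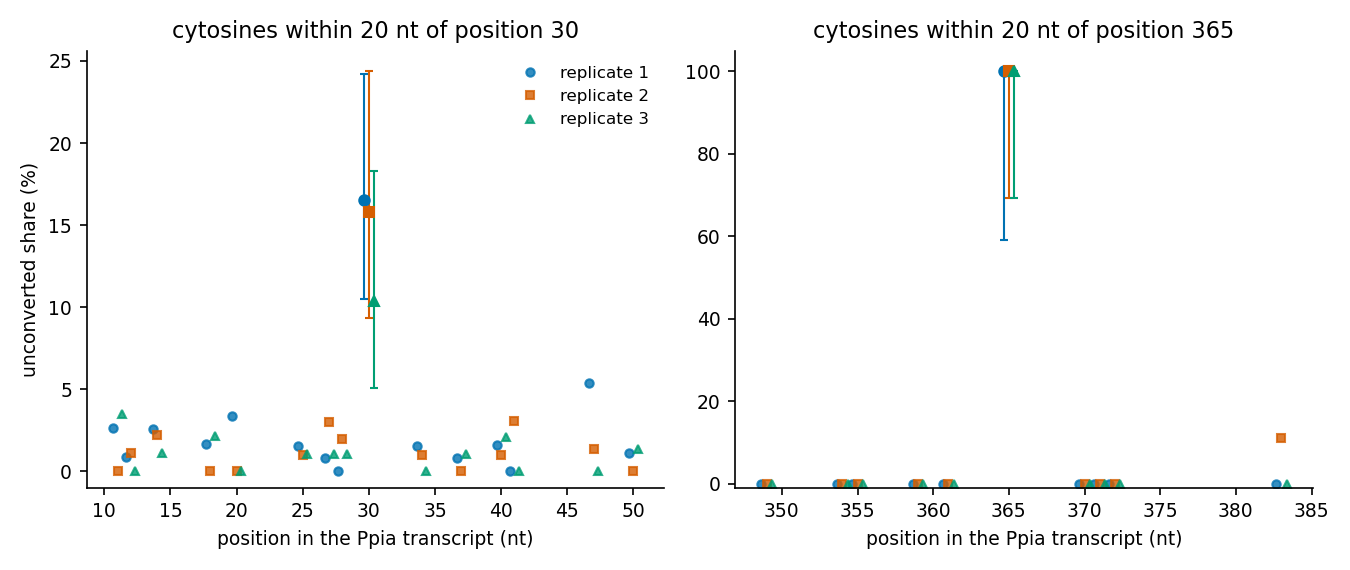
Unconverted share (%) of each listed Ppia cytosine within 20 nt of position 30 (left) and of position 365 (right), by position in the transcript, with 1 symbol per library and exact 95% intervals at the 2 named positions. Position 30 stood at 10.4% to 16.5% among neighbours that reached at most 5.38%, and position 365 at 100% in each library among neighbours nearly all at 0.

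Of all 22504 testable cytosines at positions 1 to 50 of any transcript, 15 (0.0667%) were candidates, against the 0.0473% of all testable cytosines. The difference between these shares was not tested. In the other cyclophilins with testable cytosines there, the highest mean shares in this stretch were 9.39% at position 31 of Ppie, 4.76% at position 32 of Ppib, 4.31% at position 44 of Ppic, 2.64% at position 40 of Ppif and 1.54% at position 43 of Ppid. In Ppia itself the next highest was 3.29%, at position 9. The Ppie cytosine rested on 22, 21 and 20 reads with 3, 2 and 1 unconverted, and it did not pass the test (adjusted p = 0.273, combined exact binomial test).

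The bases after the candidate were compared with the motifs known for 2 mRNA cytosine methyltransferases, on the RNA strand and starting at the site. The site reads C followed by ttgc, which is neither CNGGG, a motif of Nsun2, nor CTCCA, the motif of Nsun6. Among the 399678 cytosines with 4 following bases in the first 50 nt of all 32851 RefSeq gene starts, 3.32% began CNGGG and 0.643% began CTCCA.

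A further Ppia cytosine was left out of the test by its depth. Position 365 was unconverted in 7 of 7 reads in replicate 1, in 10 of 10 in replicate 2 and in 10 of 10 in replicate 3, or 27 of 27 (exact 95% interval 87.2% to 100%). It was chosen after its values were seen. The 9 other listed cytosines within 20 nt, from position 349 to 383, had 0 unconverted reads in replicates 1 and 3 and 1 in replicate 2, so 0.442% of their reads were unconverted. The reads over position 365 were therefore converted on both sides of it. Across the whole table, 1386348 cytosines were listed in all 3 libraries with fewer than 10 reads in at least 1 of them. Only 6 of these, in 6 genes, had more than 3 unconverted reads in each library. A cytosine with 3 reads in a library could not meet this, and the number deep enough to meet it was not counted. Shallow cytosines also could not reach a total of 20 reads, so these counts do not measure how rare such a site is. Among the 1386348, position 365 of Ppia was the only cytosine with at least 20 reads of which every one was unconverted. With a coverage minimum of 7 reads, a value chosen after seeing the data, it was a candidate as well, as it was without replicate 1. It is not known here whether these reads came from the Ppia mRNA or from the processed copies, and a base that differs between the copies and the mRNA model was not tested.

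Ppia was read in 3 separate stretches. The first, from position 5 to 104, held 39 listed cytosines with a mean coverage of 74.9, 55.6 and 53.6 reads in replicates 1, 2 and 3. The second, from 302 to 417, held 31 cytosines with 5.80, 8.06 and 7.44 reads, and it contains position 365. The third, from 481 to 698, held 64 cytosines with 82.1, 84.7 and 94.1 reads. The middle stretch was thus thinly read in every library. Within the third stretch the depth came from positions 501 to 600, with a mean coverage of 167, 171 and 187 reads, while positions 601 to 700 had 19.3, 20.3 and 24.7.

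No cytosine was listed for 197 nt between positions 104 and 302, nor for 63 nt between 417 and 481. The coverage tapered towards the longer gap, from 14, 10 and 8 reads at position 88 to 3, 4 and 3 at position 101. The tables list no cytosine below 3 reads, so a gap can mean low coverage as well as a lack of cytosines. The longer gap took 28.4% of the span between the first and last listed cytosine. Of the 8540 genes with at least 50 listed cytosines in each library, 494 (5.78%) had a gap of at least this share, and the median was 6.24%. In length, the median longest gap of these genes was 150 nt, against the 197 nt of Ppia. The share also depends on the listed span, which was only 694 nt in Ppia.

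**Figure D2:**
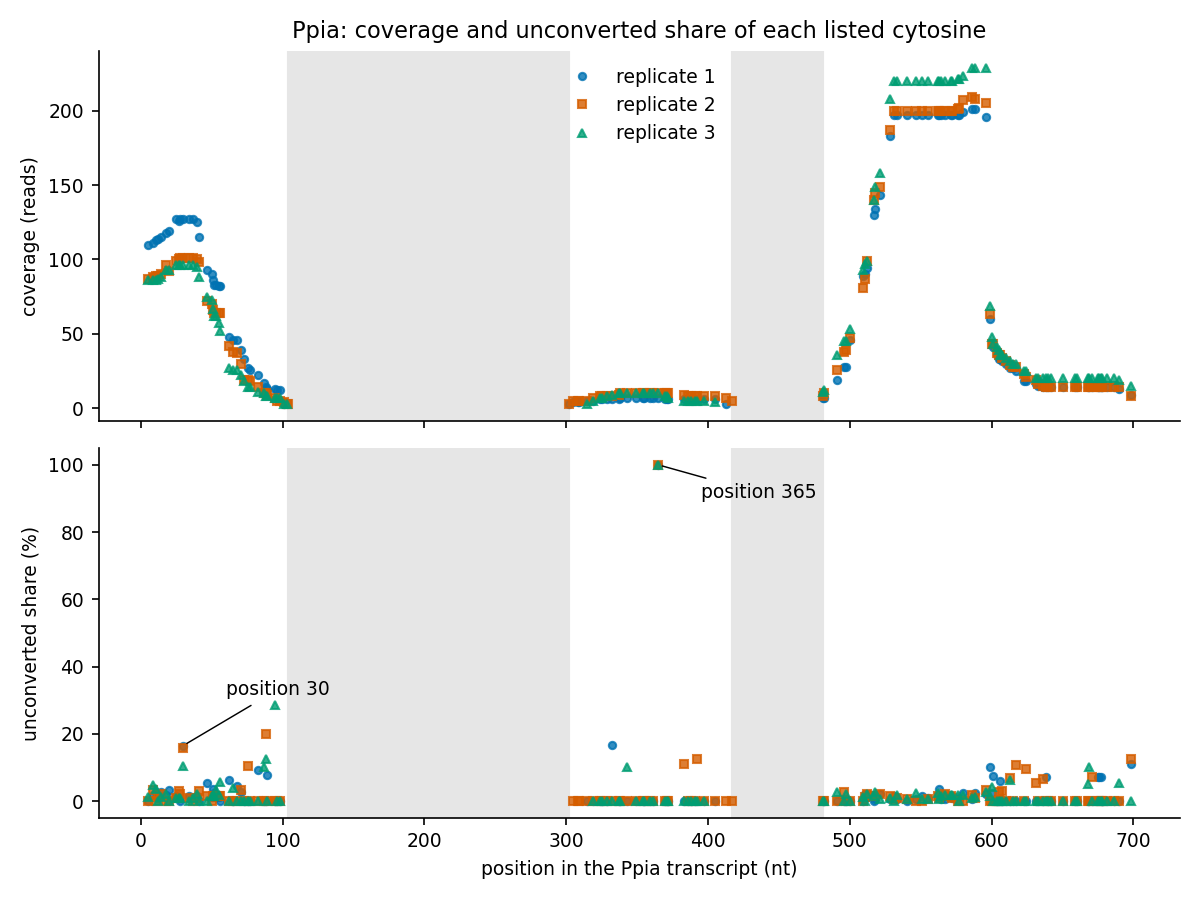
Coverage in reads (top) and unconverted share in % of cytosines with at least 5 reads (bottom) along the Ppia transcript, by position in nt, with 1 symbol per library and grey bars over the 2 stretches of more than 50 nt without a listed cytosine. The 3 libraries have the same shape, with the deepest coverage from position 531 to 596, and position 365 stands at 100% and position 30 at 10.4% to 16.5%.

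The deepest part of Ppia was a flat block. In replicate 1, 14 successive cytosines from position 531 to 577 had exactly 197 reads. In replicates 2 and 3, 12 from 531 to 572 had exactly 200 and 220 reads. These cytosines therefore share their reads, and their shares are not separate measurements. The most unconverted reads at any of them were 7, 4 and 5. The coverage then fell from 196, 205 and 229 reads at position 596 to 60, 63 and 69 at position 599, the next listed cytosine. The 100 nt from 501 to 600 carried 58.5% ± 3.11 of the transcript's coverage on 20.1% of its listed cytosines (SD, n = 3).

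Ppia and Ppid are the cytosolic members. Over its listed cytosines Ppia had a mean coverage of 62.6, 58.5 and 64.9 reads in replicates 1, 2 and 3, a mean of 62.0 ± 3.23, and Ppid had 89.5, 83.9 and 80.8, a mean of 84.7 ± 4.39 (SD, n = 3). Coverage per cytosine does not grow with the length of a transcript, but it is only a rough measure of abundance, and in RNA from many cells fewer cells with a transcript and less of it per cell cannot be told apart. Ppid (NM_026352.3) was read along its whole length, from position 8 to 1712 with no stretch of more than 41 nt without a listed cytosine. The first 100 nt held 24.0% ± 0.838 of its summed coverage on 31 listed cytosines, and positions 501 to 600 held 22.5% ± 1.70 on 14. Per cytosine, positions 501 to 600 were the deeper, at 406 ± 33.6 reads against 197 ± 16.1.

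Ppid had 253 testable cytosines and no candidate. At any level, 2 cytosines passed, meaning that their adjusted p was below 0.05 and all 3 libraries exceeded the library-wide share. Position 52 had 15 of 325, 13 of 304 and 6 of 294 unconverted reads in replicates 1, 2 and 3, a mean of 3.64% ± 1.40 (adjusted p = 0.00182, combined exact binomial test). Position 147 had 9 of 192, 7 of 165 and 8 of 171, a mean of 4.54% ± 0.254 (adjusted p = 0.00510, same exact test). Position 52 no longer passed without replicate 1 or without replicate 2, nor position 147 without replicate 1 or without replicate 3. These shares passed at 165 to 325 reads. The median testable coverage of Ppid was 52.0 reads, where even 0 unconverted reads in 1 library leave room for a share of up to 5.77% (3 counts). The highest mean share of Ppid, 10.9% ± 9.44 at position 1291, came from 4 of 25, 2 of 12 and 0 of 18 reads and did not pass (adjusted p = 0.0945, same exact test), because replicate 3 had no unconverted read. Without that library it was a candidate at 16.3%.

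Ppib and Ppic, the members of the secretory pathway, differed in depth. Ppib (NM_011149.2) had a mean coverage of 63.0, 59.1 and 59.0 reads, a mean of 60.4 ± 2.27, and Ppic (NM_008908.4) had 14.8, 16.3 and 14.4, a mean of 15.2 ± 1.02 (SD, n = 3). The libraries of the 2 genes did not overlap. Ppib is nearly as short as Ppia in listed span, 710 against 694 nt, and had a similar mean coverage. It was nevertheless read without a break, its longest stretch without a listed cytosine being 18 nt. Positions 101 to 200 of Ppib held 38.9% ± 0.312 of its coverage. Ppic had 1 stretch of more than 50 nt without a listed cytosine, of 147 nt or 11.8% of its 1249 nt span.

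Neither gene had a candidate. Of the 144 testable cytosines of Ppib and the 91 of Ppic, 5 and 1 had an unadjusted combined p below 0.05, and none passed after adjustment at any level. The highest mean share in Ppib was 5.92% ± 1.71 at position 463, from 3 of 38, 2 of 41 and 2 of 40 reads. In Ppic it was 6.61% ± 0.916 at position 324, from 1 unconverted read in each library out of 14, 14 and 18. At the median testable coverage of Ppic, 22.0 reads, this limit for 1 library is 13.6%.

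Ppif, the mitochondrial cyclophilin (NM_134084.1), had a mean coverage of 62.1, 65.6 and 58.7 reads, a mean of 62.1 ± 3.46 (SD, n = 3). Its coverage had a peak at positions 201 to 300 with 18.6% ± 2.54 of the total and a broader one at 801 to 1200 with 53.4% ± 2.59. It had no candidate among 266 testable cytosines, and 7 had an unadjusted combined p below 0.05. Position 1138 alone passed below the level minimum, with 2 of 104, 6 of 115 and 7 of 97 unconverted reads, a mean of 4.79% ± 2.67 (adjusted p = 0.0346, combined exact binomial test). In replicate 1 its share of 1.92% was barely above the library-wide 1.53%, and it did not pass without replicate 2 or without replicate 3.

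The nuclear members spanned the widest range of depth. Ppie, which carries an RNA recognition motif beside its isomerase domain, had a mean coverage of 40.2, 38.5 and 41.4 reads (NM_019489.5), a mean of 40.0 ± 1.45. Ppig, whose protein has a long arginine- and serine-rich tail, had 54.5, 68.5 and 60.4 (NM_001081086.1), a mean of 61.2 ± 7.01. Ppih, a component of the spliceosomal tri-snRNP, had 7.75, 6.59 and 9.21 over its 3 listed transcripts together, a mean of 7.85 ± 1.31 (SD, n = 3 for each).

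Coverage rose towards the 3' end in Ppie, where positions 801 to 1158 held 59.3% ± 3.38 of it. In Ppig it was packed into positions 2001 to 2200, which held 61.0% ± 4.50 of the coverage on 36 of 497 listed cytosines and reached 864, 1235 and 1003 reads at the deepest cytosine. Ppig also had 11 stretches of more than 50 nt without a listed cytosine, which together made up 49.3% of its 5950 nt span. The longest was 943 nt, between positions 4242 and 5186. Ppih was listed under NM_001110129.1 with 143 cytosines, NM_028677.4 with 35 between positions 626 and 749, and NM_001110130.1 with 4 in replicate 2 only. The first of these had 5 stretches of more than 50 nt without a listed cytosine, the longest of 207 nt. Together they made up 48.7% of its 1467 nt span, against 37.5% for such stretches in Ppia. Where a gene's transcripts are listed apart, low coverage does not show low expression.

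Among the nuclear members Ppie had 2 cytosines that passed below the level minimum, and Ppig and Ppih had none. Position 505 of Ppie had 9 of 94, 2 of 74 and 5 of 85 unconverted reads, a mean of 6.05% ± 3.44 (adjusted p = 0.00209, combined exact binomial test). Position 1096 of Ppie had 5 of 167, 10 of 189 and 9 of 227, a mean of 4.08% ± 1.15 (adjusted p = 0.0111, same exact test). Position 505 did not pass without replicate 1, nor position 1096 without replicate 2 or without replicate 3. No candidate was found in 194 testable cytosines of Ppie, 252 of Ppig and 19 of Ppih, of which 7, 12 and 0 had an unadjusted combined p below 0.05. The highest mean share in Ppig, 8.93% ± 1.16 at position 273, and in Ppih, 4.91% ± 0.699 at position 684, each came from 1 unconverted read per library.

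**Figure D3:**
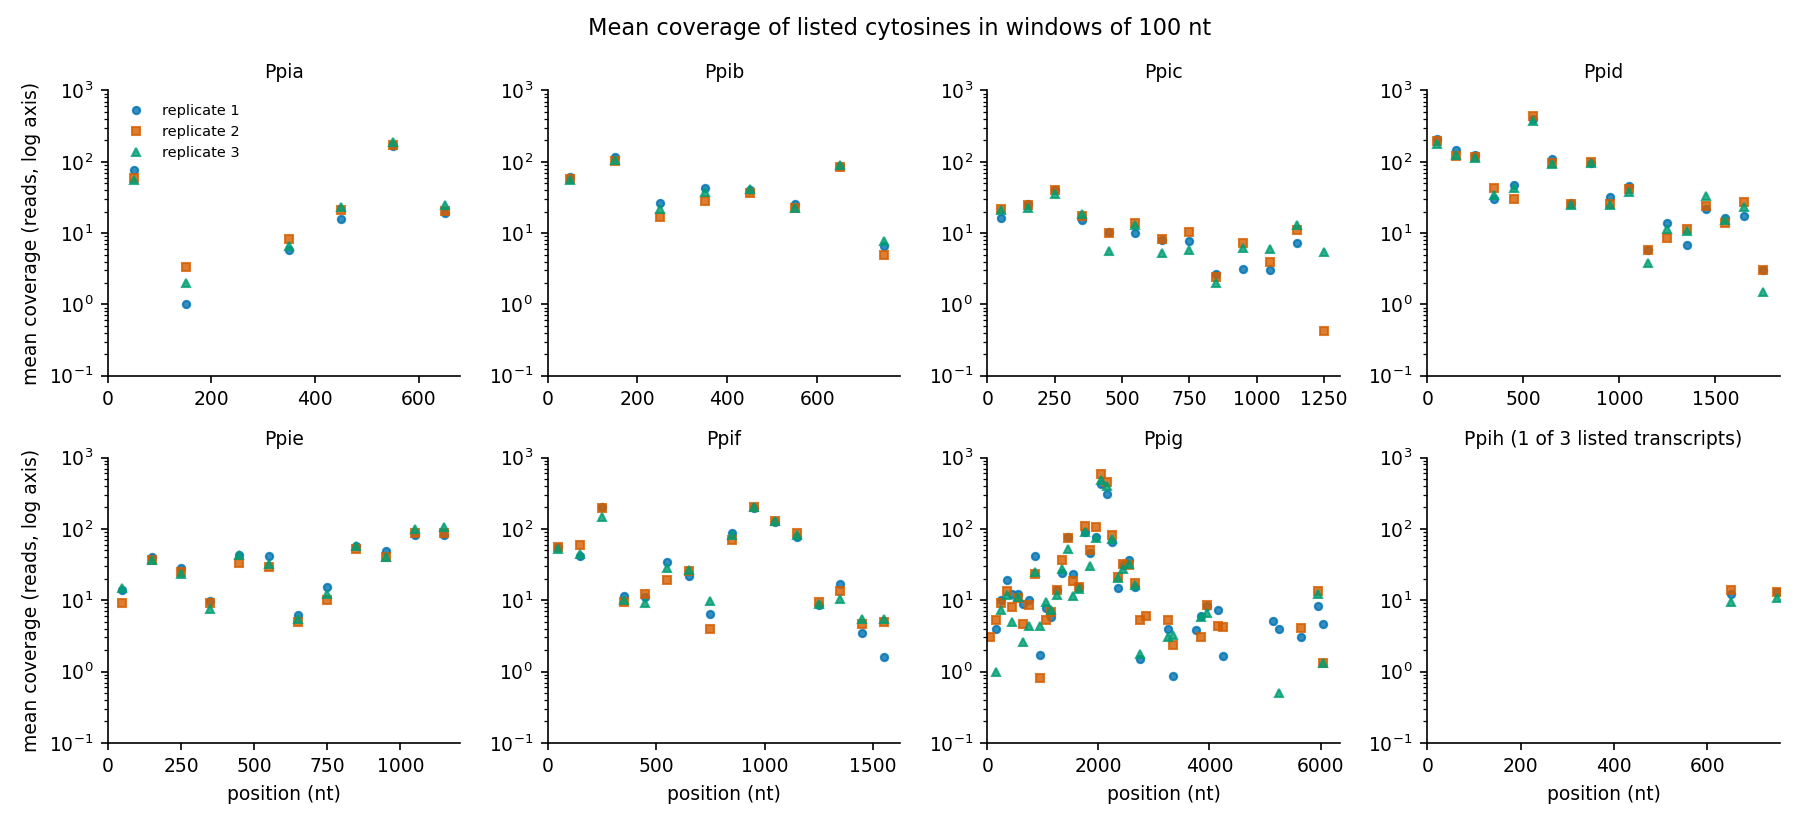
Mean coverage in reads (log axis) of the cytosines in each window of 100 nt, by position in nt, for 1 transcript of each cyclophilin gene and each library (a library with no listed cytosine in a window has no symbol). Means run over cytosines listed in any library, and one that a library does not list counts as unread there. No cytosine below 3 reads is listed, so means in thinly read windows can be too low. Coverage is uneven in all of them, and Ppig peaks at positions 2001 to 2200. Ppib, Ppid, Ppie and Ppif are read without long breaks, whereas Ppia, Ppic and Ppig have them. Ppih is drawn by its transcript with 35 listed cytosines, and its transcript with 143, not drawn, has a longest gap of 207 nt.

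In order of mean coverage per listed cytosine the family ran Ppid, Ppif, Ppia, Ppig, Ppib, Ppie, Ppic and Ppih. Ppid lay above all others in each library. Ppif, Ppia, Ppig and Ppib, from 62.1 to 60.4 reads, could not be ordered, since the ranges of neighbours overlapped and no order was kept in all 3 libraries. Ppie, Ppic and Ppih followed without overlap. These means leave out the parts of a transcript without a listed cytosine. Averaged over cytosines listed in any library, with those a library does not list counted as unread, Ppig fell to 52.2 reads. By this measure Ppia had 60.4, Ppib 59.1 and Ppif 58.9. By the median over a gene's cytosines in place of the mean, Ppia had 25.0 reads and stood below Ppid (37.8), Ppib (31.3) and Ppie (26.5). Among the 8540 genes with at least 50 listed cytosines in each library, whose median was 15.0 reads, Ppia ranked 957th by its mean coverage. Genes close to it were Scd2 above and Mtch1 and Mrpl36 below, all at 62.0 reads. Their longest gap was 20 to 130 nt, against 197 nt in Ppia. It took 1.12% to 5.39% of listed spans of 835 to 5081 nt, against 28.4% of 694 nt in Ppia. The unconverted shares of these genes ran from 1.29% ± 0.0746 in Mrpl36 to 1.54% ± 0.0817 in Mtch1 (SD, n = 3).

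The unconverted share over all reads of a gene stayed close to the library-wide share, which was 1.53%, 1.45% and 1.41% in replicates 1, 2 and 3. Ppia had 1.76%, 1.52% and 1.54%, a mean of 1.60% ± 0.132, and the other 7 genes together had 1.60%, 1.47% and 1.39%, a mean of 1.49% ± 0.106 (SD, n = 3). Ppia was higher by 0.157, 0.0482 and 0.152 percentage points in the 3 libraries. These differences are a description without a test. Position 30 alone held 12.0% ± 3.59 of all unconverted Ppia reads and position 365 held 7.05% ± 1.91. Without the candidate at position 30 the differences were -0.0752, -0.139 and 0.0477. Without both positions Ppia was lower than the others in each library, by -0.161, -0.266 and -0.0734 percentage points as Ppia minus the others. These 2 cytosines were chosen for their high shares and nothing was taken from the other genes, so the differences without them describe only how much of the Ppia share they carry. Over cytosines with at least 10 reads in all libraries, which leaves out position 365 but keeps position 30, the differences were 0.100, -0.0925 and 0.0364, not all of one sign.

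Within Ppia, the share was also taken for each of the 3 stretches. It was 2.16% ± 0.198 in the first stretch and 1.57% ± 0.152 there without position 30. It was 5.10% ± 0.709 in the second stretch and 0.667% ± 0.145 without position 365. The second stretch had a mean coverage of only 7.10 ± 1.17 reads. Its share without position 365 therefore rests on very few unconverted reads, and the SD does not hold their counting error. In the third, the deepest, the share was 1.24% ± 0.0946 (SD, n = 3 for each).

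The other members had mean shares from 1.39% ± 0.0809 in Ppif to 1.56% ± 0.170 in Ppie. Ppie was above the library-wide share in all 3 libraries, as was Ppia, and Ppif in none. The spread between libraries was larger than most of these differences, with replicate 1 the highest library in Ppia, Ppib, Ppid, Ppie, Ppif, Ppig and Ppih. It was also the library with the highest share over all genes. In Ppib the libraries lay at 1.76%, 1.40% and 1.32%, and in Ppig at 1.65%, 1.63% and 1.31%.

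**Figure D4:**
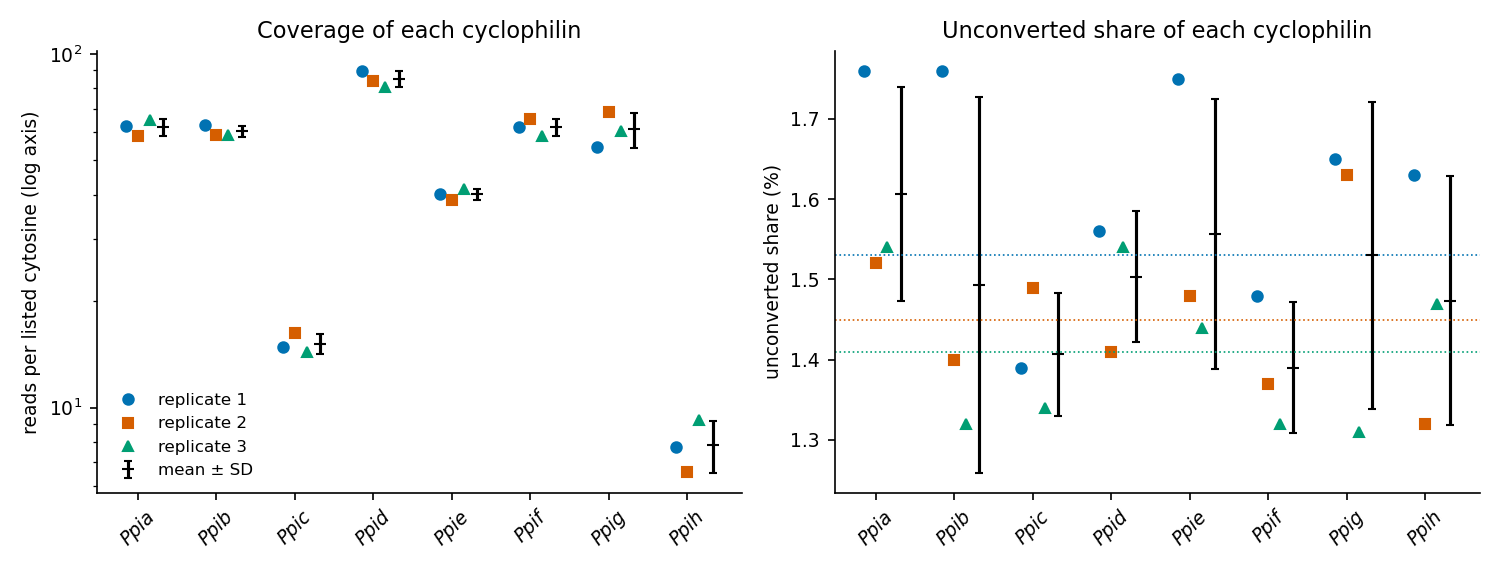
Mean coverage per listed cytosine in reads (left, log axis) and unconverted share of all reads in % (right, axis not starting at 0) for each cyclophilin gene, with 1 symbol per library, the mean ± SD of the 3 libraries in black, and the library-wide shares as dotted lines. Ppid is the deepest and Ppih the shallowest in all libraries, and the shares, from 1.31% to 1.76%, overlap between genes.

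Counted over the family, 6 of 1311 testable cytosines (0.458%) passed at any level, against 0.469% of all testable ones. They were the candidate in Ppia, 2 cytosines in Ppid, 2 in Ppie and 1 in Ppif. An unadjusted combined p below 0.05 was reached by 50 (3.81%), against 3.32% of all. The family's counts were thus close to those of the whole table. At 319 of the 1311 no unconverted read was seen in any library, from 17.4% of the testable cytosines in Ppia to 46.2% in the shallower Ppic, against 28.6% over all genes.

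Other prolyl isomerases were counted in the same way. Of 29 genes, among them further cyclophilins and FK506-binding proteins, 28 were listed and 18 had testable cytosines. They held 3 candidates among 4691 cytosines (0.0640%) and 33 cytosines (0.703%) that passed at any level. The candidates lay at position 879 of Ppil1, a spliceosomal cyclophilin, with 2 of 12, 3 of 13 and 3 of 11 unconverted reads (22.3% ± 5.34), at position 633 of Fkbp15 (13.2% ± 5.02 from 71 reads) and at position 153 of Fkbp9 (10.9% ± 3.11 from 82 reads; SD, n = 3 for each). All 3 were read less deeply than position 30 of Ppia. The deepest genes of the list were Fkbp4, a partner of Hsp90, at 326 ± 18.6 reads per cytosine, and Fkbp3 at 149 ± 5.82. The median unconverted share of the 18 genes with at least 50 listed cytosines was 1.46%, the same as over all such genes, and that of the 8 cyclophilins was 1.50%.

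Genes that, like Ppia, are known for many processed copies were set beside it. Of 8 such genes, 7 had testable cytosines and 6 had at least 50 listed cytosines in each library. The median coverage and the gaps given below for this list come from these 6 genes. The 8 genes of this list held 2 candidates among 1481 testable cytosines (0.135%), at position 106 of Cfl1 (12.6% ± 1.78 from 504 reads) and position 310 of Hmgb1 (10.4% ± 5.30 from 83 reads). At any level 88 (5.94%) passed, against 0.469% of all testable cytosines. An unadjusted combined p below 0.05 was reached by 15.3%, against 3.32% of all. The median gene coverage was 839 reads, against 60.8 in the cyclophilins. Deep cytosines can pass at lower shares, but cytosines of matched depth were not compared, so the part of depth in these counts was not tested. The 3 deepest, Rplp0 (2979 ± 59.1 reads), Eef1a1 (1901 ± 189) and Tpt1 (1226 ± 26.5), were read with longest gaps of 22 to 27 nt, or 1.25% to 2.60% of their listed span (SD, n = 3). Nearer to Ppia in depth, Hmgb1 (83.4 ± 5.38 reads) had a longest gap of 222 nt, more than the 197 nt of Ppia but 9.68% of a longer span, and Npm1 (44.4 ± 4.08 reads) had one of 28 nt or 7.65%.

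The labels were checked on the files as far as they allow. Tet1 was listed with 16 to 19 cytosines per library, all between positions 4666 and 4774, while Tet2 had 632 to 719 and Tet3 344 to 448 at 6.06 to 11.7 reads. Which exons were deleted was not known here, and these reads do not check the knockout. The stem cell markers Pou5f1, Sox2 and Zfp42 had 85.8 to 335 reads per listed cytosine. Nanog had 6.12 to 10.2, on only 16 to 28 listed cytosines between positions 671 and 777. The fibroblast collagens Col1a1 and Col1a2 had 12.4 to 20.5, on 1059 to 1289 listed cytosines. Nanog and the collagens are therefore not compared in level. The part of feeder RNA in the cyclophilin values was not tested. Summed over all cytosines, the coverage was 151362866, 142608298 and 139884444, of which the cyclophilins took 0.0724%, 0.0790% and 0.0764%.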

How the data were processed

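Per the labels' protocols, poly(A)+ RNA was fragmented, treated with DNase and bisulfite, and sequenced as paired-end reads. Per the submitters' processing notes, BSMAP and mm9 were used. The deposited tables name a RefSeq mRNA, a cytosine position, the coverage (a read count) and the fraction of those reads left unconverted. Tool version, annotation and counting step: not given in the sources used here. No listed coverage is below 3. The product of fraction and coverage was a whole number of reads (tolerance 1e-06) at 100% of cytosines, and served as the unconverted count.

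Accessions without version were matched to symbols for 14932 of 15021 transcripts (RefSeq, GRCm38.p6). Only RefSeq gene-start sequences were at hand, so no coding frame, exon or UTR was assigned, and the copies of Ppia were not analysed here.

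The p-values were computed with scipy 1.17.1 as stated in the report, with Benjamini-Hochberg adjustment. The calling was run on simulated reads drawn at the library-wide share, with some cytosines set to known higher shares. These reads held no PCR copies, uneven conversion or wrongly placed reads, so the run cannot speak to such errors. Members, lists and tests were chosen with earlier results of these data known. Named sites were all candidates, the highest testable share of each member and the 3 smallest adjusted p-values. Other named sites were chosen after their values were seen. Named beyond the members were the 2 genes on each side of Ppia in mean coverage, and the list genes with a candidate or among the 3 deepest; some of these are not reported here. Alternatives changed the coverage minimum, the level minimum, the combination of p-values, the background, the cytosines averaged and the libraries included.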

Additional observations from a re-analysis of the deposited data

Results flagged for a closer look

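Position 365 of Ppia had a mean unconverted share of 100% in data that the test did not use, since replicate 1 had 7 reads there and the minimum was 10. All 27 reads of the 3 libraries were unconverted. The site has no adjusted p at the main coverage minimum.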

How the results depend on the processing

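The candidate at position 30 of Ppia was called under each alternative run except a level minimum of 20%, where the family had 0 candidates and all genes 86. A coverage minimum of 5 reads gave 3 candidates, adding position 365 of Ppia and position 1173 of Ppid, which had 3 of 6, 1 of 7 and 1 of 5 unconverted reads. A minimum of 7, chosen after seeing the data, gave 2. A level minimum of 5% gave 2, adding position 505 of Ppie, and 3322 in all genes. Leaving out 1 library gave 1 to 2 candidates: without replicate 1, position 365 of Ppia was added, and without replicate 3, position 1291 of Ppid (16.3%). Over all genes, the 775 candidates were 489 at a coverage minimum of 20, and 109 when the largest of a cytosine's 3 p-values was adjusted. With that rule 1 cytosine of the family passed at any level in place of 6, position 30 of Ppia, and the calls in Ppid, Ppie and Ppif were lost. Leaving out 1 library gave 4 calls each time, and only position 30 was among them in all 3 cases. Position 191 of Ppie, with 8 of 90, 2 of 89 and 3 of 77 unconverted reads, passed without replicate 2 and at a coverage minimum of 20.

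The difference in unconverted share between Ppia and the other members, 0.119 ± 0.0616 percentage points (SD, n = 3), was 0.0146 over cytosines with at least 10 reads in all libraries, 0.0126 with each cytosine weighted equally, -0.0554 without the candidate and -0.167 without positions 30 and 365, the last chosen after seeing the data. It was 0.100 to 0.155 with 1 library left out. Of 56 alternative values of single genes' shares 6 moved by more than the spread between libraries, in Ppia, Ppic and Ppih, and of 40 coverage values 10 did. The median coverage was below the mean in each gene, for example 25.0 against 62.0 reads in Ppia and 15.3 against 61.2 in Ppig. No paired analysis was possible because the samples form 1 group. Depth limits shallow members most: at the median testable coverage of Ppih, 18.0 reads, 0 unconverted reads in 1 library allow a share of up to 16.7%.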
